A study of Mus musculus with 6 samples.

Results

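C-type lectin receptors of myeloid cells were examined in red pulp macrophages of wild-type and Bach2 knockout mice. The set held 10 genes, Clec4n, Clec4e, Clec4d, Clec7a, Clec4a1, Clec4a2, Clec4a3, Clec12a, Clec10a and Clec1b, out of 20018 genes named on the array. Members were found by the RefSeq accession that the array gives for each probe, which matched 9 genes through 11 probes, and no accession matched Clec7a, which was not analysed here. Flow sorting isolated the macrophages from the spleens of C57BL/6 mice, all 8 to 9 weeks old, of which 3 were wild type and 3 were Bach2 knockout. Bach2 is a transcriptional repressor that pairs with small Maf proteins on DNA and whose activity is lowered by haem. The knockout is labelled only by its gene, and the labels do not say how the allele was made, whether the mice were littermates or which markers the sort used. Mice are numbered within each genotype, and mice of the same number were hybridised in the same slide column. The labels do not state that animals were paired. Only mouse 3 of each genotype shares a tag, P6, whose meaning is not given. Except for wild-type mouse 3, a female, the mice were males. Each mouse gave 1 single-colour Agilent array, so the replicates are separate animals.

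C-type lectin receptors are membrane proteins with a lectin-like domain that reads sugars, lipids or proteins of microbes, dead cells or host partners. The activating members pass their signal to the kinase Syk, either through the adaptor Fcer1g or through a tyrosine in their own tail, and from Syk to the Card9, Bcl10 and Malt1 complex. The inhibitory members carry a tail motif that recruits the phosphatases Ptpn6 and Ptpn11. On resident and recruited myeloid cells these receptors set the balance between inflammatory and tolerant responses.

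The 6 arrays on 1 slide, 3 for each genotype, had between 37.5% and 51.5% of spots well above background. Each level is a log2 signal from which the array's own 75th percentile has been taken, and that percentile ran from 865.2 on wild-type mouse 3 to 3172.1 on knockout mouse 3. Wild-type arrays lay in row 1 of the slide and knockout arrays in row 2, which means that slide row cannot be told apart from genotype. Each of the 3 slide columns held 1 array of each genotype. The marker list of red pulp macrophages had 14 of 15 genes matched, and all 14 were detected well enough to be tested. Spic, the transcription factor these macrophages need, read 5.53, 6.15 and 6.49 in wild type and 5.35, 5.58 and 6.00 in knockout. The brighter probe of Bach2 itself read -1.09, -0.21 and -1.53 in wild type and -2.42, -3.90 and -1.41 in knockout, so knockout mouse 3 lay among the wild-type mice. The place of this probe relative to the deleted part is not given in the sources used here, so it does not check the labels.

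Before the levels, the stretches of DNA at the starts of these genes are shown where letters could be set against the data. RefSeq promoter windows of assembly GRCm38.p6, 300 bases each, were held for 8 of the 10 genes. Clec4a1 and Clec4a3, which are neighbours, share runs of at least 12 bases. In capitals below, these fill a stretch of 29 bases that begins 234 bases before the start of Clec4a1 and a stretch of 30 bases that begins 68 bases before the start of Clec4a3. No other pair of members shared such a run, and how often other genes' windows share one was not counted. Clec4a2 and Clec12a were the members with TGANTCA, in capitals below, searched on both strands. This is a loose form of the 7-base core of AP-1 and Maf recognition elements, with any base allowed in the middle. The core has C or G there, as the Clec4a2 letters do, while the Clec12a letters have A. The match starts 31 bases after the start of Clec4a2 and 213 bases before that of Clec12a. TGANTCA occurs in 7.81% of all 32851 windows of this length. The same pattern with TGC directly before it, a loose form of the longer Maf element, occurs in 0.423% and in 0 member windows. The windows are Clec4a1 at chr6:122921598-122921897, Clec4a3 at chr6:122952394-122952693, Clec4a2 at chr6:123122440-123122739 and Clec12a at chr6:129349994-129350293, all on the plus strand, 5′ to 3′. A match is a run of letters and not a measured site.
Clec4a1: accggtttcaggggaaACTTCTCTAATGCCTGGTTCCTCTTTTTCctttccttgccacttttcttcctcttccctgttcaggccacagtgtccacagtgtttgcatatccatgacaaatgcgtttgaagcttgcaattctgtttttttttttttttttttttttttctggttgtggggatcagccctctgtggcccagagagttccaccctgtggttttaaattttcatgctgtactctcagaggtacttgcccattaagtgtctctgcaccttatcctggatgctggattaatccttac
Clec4a3: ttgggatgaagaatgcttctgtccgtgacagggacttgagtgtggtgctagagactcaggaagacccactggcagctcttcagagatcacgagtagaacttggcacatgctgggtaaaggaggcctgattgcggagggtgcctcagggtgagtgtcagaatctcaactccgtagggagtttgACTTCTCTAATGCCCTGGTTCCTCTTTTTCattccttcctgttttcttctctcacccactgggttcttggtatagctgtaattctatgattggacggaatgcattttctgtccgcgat
Clec4a2: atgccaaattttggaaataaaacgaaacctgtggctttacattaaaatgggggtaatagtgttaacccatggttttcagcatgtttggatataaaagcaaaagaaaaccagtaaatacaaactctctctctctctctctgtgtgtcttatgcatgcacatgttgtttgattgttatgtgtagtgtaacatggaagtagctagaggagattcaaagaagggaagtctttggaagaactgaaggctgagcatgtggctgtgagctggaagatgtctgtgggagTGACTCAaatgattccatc
Clec12a: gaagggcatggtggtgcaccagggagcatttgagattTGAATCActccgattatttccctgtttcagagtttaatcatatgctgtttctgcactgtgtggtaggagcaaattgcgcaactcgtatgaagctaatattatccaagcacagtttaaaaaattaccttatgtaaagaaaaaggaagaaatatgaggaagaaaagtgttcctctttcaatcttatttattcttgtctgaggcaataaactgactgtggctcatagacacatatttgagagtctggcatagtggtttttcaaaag

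No lectin receptor gene was called different between the genotypes. Of the 9 genes with a probe, 8 were tested, and 0 of their 10 tested probes were called by limma at an adjusted p under 0.05, where 0% of all 23032 tested probes were called. At an unadjusted p under 0.05 there were 309 probes over the array (1.34%, with 0.699% higher and 0.643% lower in knockout) and 0 among the members. The genotypes overlapped for all 11 member probes, against 3.30% of tested probes whose genotypes did not overlap (2.07% lower and 1.23% higher in knockout). By their brightest probe, 7 of the 8 tested genes had a lower mean in knockout, beside 61.5% of all tested probes, and 1 had a higher mean, beside 38.5%. Their median log2 difference was -0.19 against -0.12 over all tested probes. That direction depended on the scaling. With each array centred on its median 4 of 8 lay below 0, and with quantile normalization 5 of 8. The members' median then lay -0.07 and -0.0012 from that of all probes, which itself moved to 0.02 and -0.03. With slide column as a block, limma again called 0 probes, and 723 had an unadjusted p under 0.05.

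**Figure D1:**
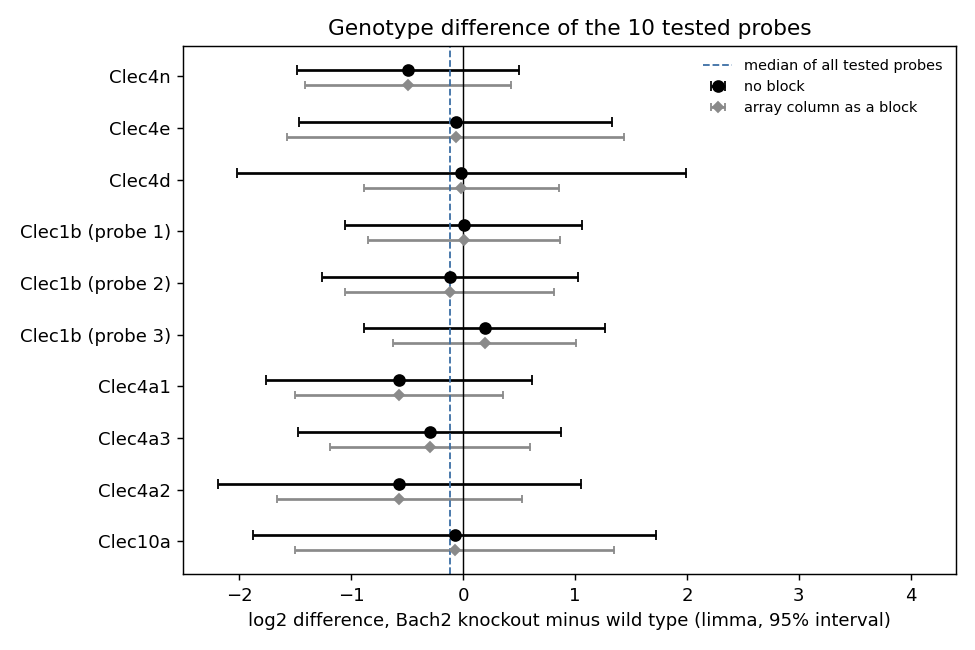
Log2 difference between Bach2 knockout and wild type (x axis, limma estimate with its 95% interval) for the 10 tested probes of 8 genes, without a block (black) and with slide column as a block (grey). Every interval spans 0, and the estimates run from -0.57 for Clec4a1 to 0.19 for a probe of Clec1b, around the dashed median of all tested probes at -0.12.

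Among the activating receptors, Clec4n encodes Dectin-2, which binds mannose-rich fungal walls and signals through Fcer1g. Its level was 7.36, 7.78 and 7.79 in wild type and 7.26, 7.42 and 6.77 in knockout. The gene was well above background on all 6 arrays, 2 knockout mice lay below every wild-type mouse, and knockout mouse 2 reached into the wild-type range. Wild type averaged 7.64 ± 0.24 (SD, n = 3) and knockout 7.15 ± 0.34 (SD, n = 3). The log2 difference was -0.49 ± 0.43 (SE), with a 95% interval from -1.48 to 0.50 and a limma adjusted p of 0.9999. On this scale wild type was 1.405-fold higher, and the interval also admits a gain in knockout.

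The low value of knockout mouse 3 stands beside its array percentile. Before scaling, the Clec4n signal was 284871.1, 371862.4 and 191223.9 in wild type and 237655.3, 201176.5 and 346793.7 in knockout. Knockout mouse 3 thus had the second-brightest Clec4n spot and the lowest scaled level. The Clec4n signal varied 1.94-fold over the arrays, whereas the 75th percentile varied 3.67-fold. The brightest spot of an array read between 542523.0 and 632300.1, and no spot was marked as saturated. The difference was -0.30 without knockout mouse 3 and -0.05 with quantile normalization, and the part of the scaling in it was not tested.

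Clec4e and Clec4d encode Mincle and its partner MCL, which bind mycobacterial glycolipids and also use Fcer1g. Clec4d read -0.93, 1.91 and 0.31 in wild type and -0.59, 1.89 and -0.05 in knockout. In each genotype mouse 2 was the highest and mouse 1 the lowest, and the genotypes covered nearly the same range. The means were 0.43 ± 1.43 and 0.42 ± 1.30 (SD, n = 3 each), and the log2 difference was -0.01 ± 0.87 (SE) with a 95% interval from -2.02 to 1.99. With slide column as a block the interval narrowed to -0.89 to 0.86. These intervals leave room for a change of either sign.

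Clec4e was dim and passed background on 2 of 3 arrays of each genotype. It read -2.68, -1.001 and -2.72 in wild type and -2.48, -2.59 and -1.52 in knockout, so wild-type mouse 2 and knockout mouse 3 stood above the other 4. The log2 difference was -0.07 ± 0.61 (SE), from -1.46 to 1.33 at 95%. Mincle and MCL did not share the mouse that was high in knockout, which was mouse 3 for Clec4e and mouse 2 for Clec4d.

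Clec1b encodes CLEC-2, the receptor for podoplanin, best known on platelets, which signals to Syk through its own tail. Its brightest probe read 5.15, 6.14 and 5.34 in wild type and 5.42, 5.81 and 5.42 in knockout. All 3 knockout values lay inside the wild-type range. The means were 5.54 ± 0.53 and 5.55 ± 0.23 (SD, n = 3 each) and the log2 difference was 0.01 ± 0.46 (SE), from -1.05 to 1.06 at 95%. The other probes gave -0.12 ± 0.50 and 0.19 ± 0.47 (SE), so the 3 probes differed in sign by less than their errors.

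Platelet genes were read beside Clec1b. The list of platelet and megakaryocyte markers had 6 of 12 genes tested, and Itga2b, Gp1ba, Gp5, Gp6 and Tubb1 were among those well above background on too few arrays. All 6 tested genes lay below 0, beside 61.5% of all tested probes, with a median log2 difference of -0.83 and 0 called. Pf4, a platelet chemokine, read 4.88, 5.76 and 2.09 in wild type and 2.38, 4.08 and 1.73 in knockout, a log2 difference of -1.51 ± 0.996 (SE, limma adjusted p = 0.9999). Treml1, a platelet granule receptor, gave -1.77 ± 1.08 (SE). The summed level of the 6 genes ran from 2.83 to 6.17 in wild type and from 2.63 to 4.80 in knockout. Wild-type mouse 3 had the lowest Pf4 of its genotype, while its Clec1b lay between those of the other two. The part of platelet RNA in Clec1b was not tested.

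**Figure D2:**
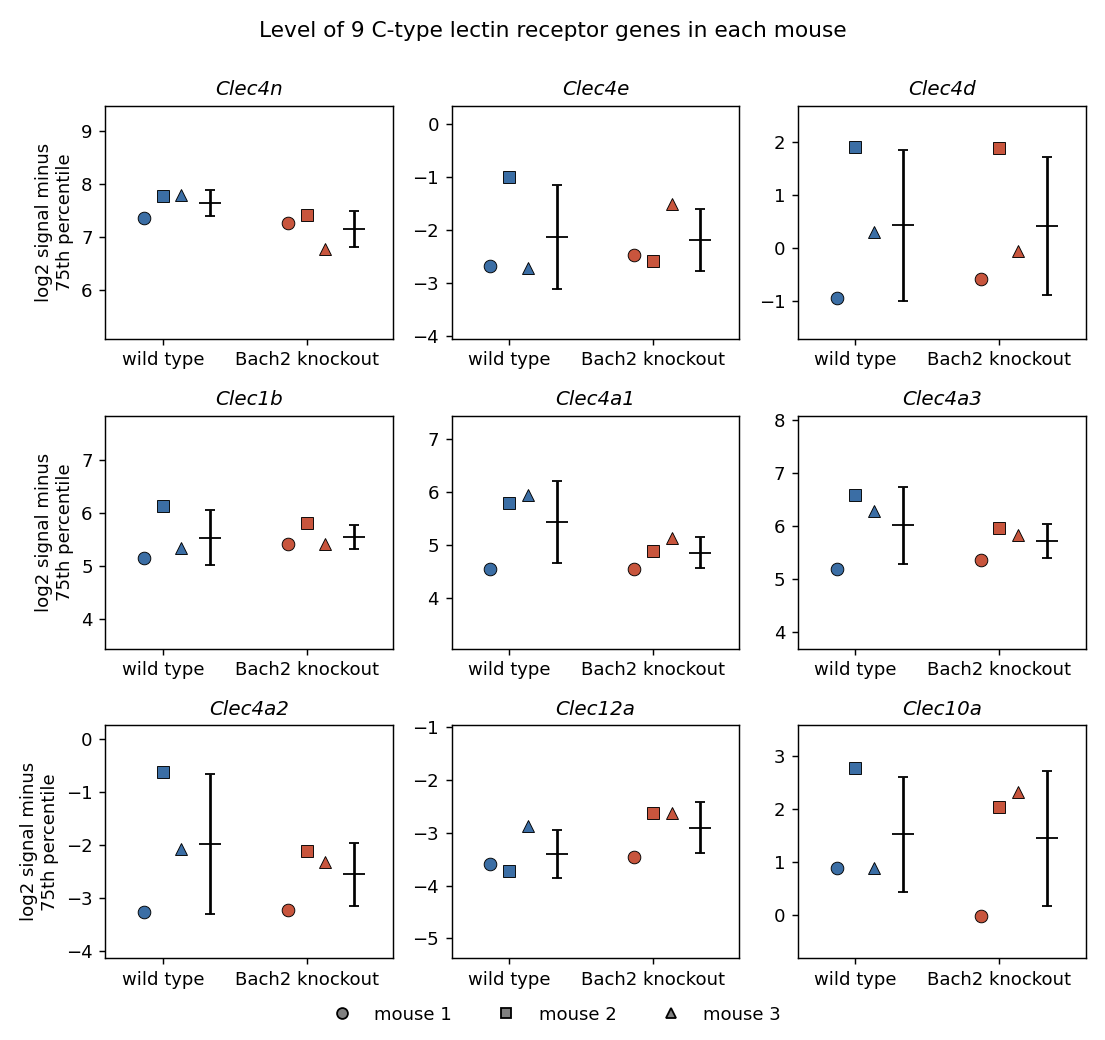
Scaled log2 signal (y axis, the array's 75th percentile set to 0) of 9 lectin receptor genes, by their brightest probe, in each of 3 wild-type (blue) and 3 Bach2 knockout mice (red), with bars for mean ± SD. Each panel spans the same number of log2 units around its own centre, and the genotypes overlap in all 9 panels, with wild-type mouse 2 the highest of all mice in 6.

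Further members belong to the DCIR group. Clec4a2 encodes DCIR1, which carries the inhibitory tail motif, while Clec4a1 and Clec4a3 encode the related DCIR4 and DCIR3. Clec4a1 read 4.53, 5.79 and 5.94 in wild type and 4.54, 4.88 and 5.12 in knockout. Wild-type mice 2 and 3 stood above all knockout mice, while wild-type mouse 1 equalled the lowest of them to within 0.003. The means were 5.42 ± 0.77 and 4.85 ± 0.29 (SD, n = 3 each), and the log2 difference was -0.57 ± 0.52 (SE), from -1.76 to 0.62 at 95% (limma adjusted p = 0.9999). It lay between -1.02 and -0.31 in all 16 alternatives tried, none of which called it, and the -1.02 came from leaving out wild-type mouse 1. Alternatives that changed only the filter, the variance prior or the block could not move this estimate.

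For Clec4a3, mouse 1 was again the lowest of each genotype. It read 5.20, 6.58 and 6.28 in wild type and 5.36, 5.97 and 5.84 in knockout, with all knockout mice inside the wild-type range. The log2 difference was -0.30 ± 0.51 (SE), from -1.47 to 0.88 at 95%, and 0.01 with quantile normalization. It was -0.71 without wild-type mouse 1 and -0.015 without wild-type mouse 2. Over the 6 mice Clec4a1 and Clec4a3 correlated with r = 0.92 and Clec4a2 and Clec4a3 with r = 0.95, as a description of mice that share a slide and a scaling. The shared promoter run shown above belongs to the first of these pairs, while the second, with the higher r, shares none. A link between the run and the levels was not tested.

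Clec4a2 was dim and passed background in wild-type mouse 2 and in knockout mice 2 and 3. It read -3.26, -0.62 and -2.07 in wild type and -3.22, -2.12 and -2.32 in knockout. Wild-type mouse 2 was the highest, and mouse 1 was the lowest in each genotype. The log2 difference was -0.57 ± 0.71 (SE), from -2.19 to 1.05 at 95%, and it was 0.11 without wild-type mouse 2. A value near background can misstate a change in either direction. Clec4f, a lectin gene not well above background on any array, differed by 0.47, 2.12 and -1.62 within the 3 slide columns.

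Clec12a, another receptor with an inhibitory motif, which senses uric acid crystals from dead cells, was the member that could not be tested. It was well above background on 1 array of each genotype. Its values were -3.59, -3.73 and -2.88 in wild type and -3.46, -2.63 and -2.63 in knockout. Wild-type mouse 2, an array on which it passed, had the lowest value of all, and the lowest level well above background on that array was -4.59. No fold is given for it.

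Clec10a encodes MGL1, which binds terminal galactose and marks some dendritic cells and alternatively activated macrophages. It read 0.88, 2.77 and 0.89 in wild type and -0.03, 2.04 and 2.31 in knockout, well above background throughout. Values of about 2 to 3 and values below 1 occurred in each genotype, and knockout mouse 1 was the lowest. The means were 1.51 ± 1.09 and 1.44 ± 1.28 (SD, n = 3 each) with a log2 difference of -0.07 ± 0.79 (SE), from -1.88 to 1.73 at 95%. Without wild-type mouse 2 the difference was 0.56, and without knockout mouse 1 it was 0.66.

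For most of the genes, mice of 1 genotype varied by more than the genotypes differed. For 7 of the 9 genes the wider SD within a genotype exceeded the absolute difference of the means, with Clec4n and Clec12a as the exceptions. The share of all tested probes for which this holds was not counted, so it is not shown to be particular to these genes. Wild-type mouse 2 was the highest of the 6 mice for 6 of the 9 genes, beside 27.5% of all tested probes. The SD was wider in wild type for 6 of 9, beside 49.6% of all tested probes, with medians of 0.77 in wild type and 0.48 in knockout against 0.60 and 0.65 over all tested probes. Averaged over the 8 tested genes, after centring each gene on its mean, the mice read -0.65, 0.99 and 0.04 in wild type and -0.65, 0.24 and 0.02 in knockout. Mouse 1 of each genotype was the lowest, at nearly the same value, and wild-type mouse 2 stood above the rest. Erythroid genes ran the other way in mouse 1 of each genotype and in wild-type mouse 2, but not in knockout mouse 2. The centred mean of 6 tested erythroid genes was 1.38, -1.21 and -0.57 in wild type and 1.23, 0.40 and -1.22 in knockout, highest in mouse 1 of each genotype, and 0 of the 6 were called by limma. Their summed level ran from 8.61 to 9.77 in wild type and from 7.98 to 9.79 in knockout, and the part of erythroid RNA in the lectin values was not tested.

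The slide columns gave different answers. In column 1 the knockout mouse was below the wild-type mouse for 2 of 8 tested genes, in column 2 for 8 of 8 and in column 3 for 5 of 8. The median over the genes was 0.10, -0.67 and -0.30 in columns 1, 2 and 3, where all tested probes had medians of -0.13, -0.10 and -0.03. Column 2 holds wild-type mouse 2, and without that mouse the median over the genes was 0.21. Without wild-type mouse 1 it was -0.66. Within columns, Clec4e gave 0.20, -1.59 and 1.19 and Clec10a -0.91, -0.74 and 1.43. Clec4n, at -0.10, -0.35 and -1.02, had the same sign in all 3, and so had the dim Clec12a. Column 3 sets the female wild-type mouse against a male knockout mouse, so sex and genotype cannot be told apart in it.

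**Figure D3:**
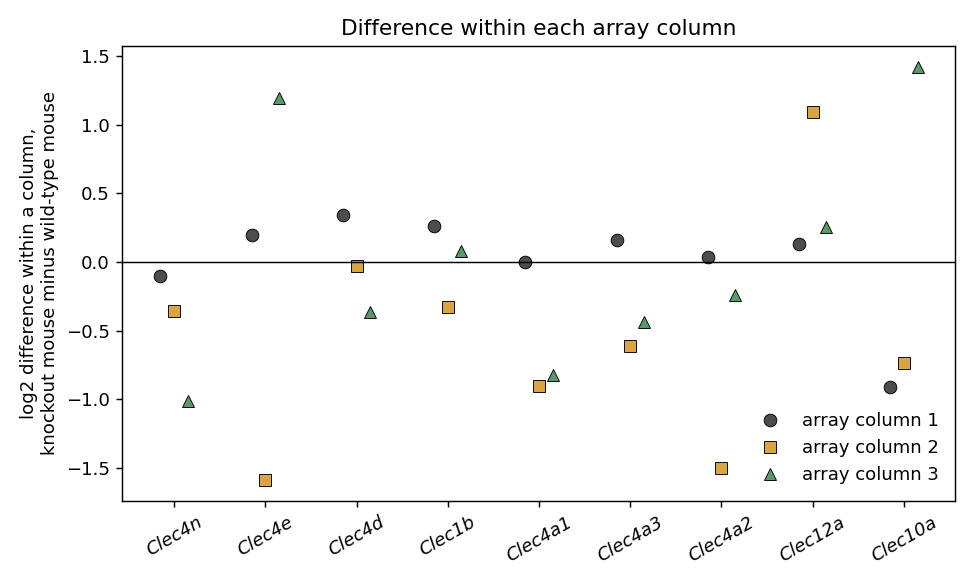
Log2 difference between the knockout and the wild-type mouse of the same slide column (y axis) for 9 lectin receptor genes (x axis), with a symbol for each of 3 columns. Signs are mixed for 7 genes, a share not counted over all tested probes, and the values spread from -1.59 to 1.43.

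The members include 6 that lie in 1 gene cluster on the chromosome, in the order Clec4a1, Clec4a3, Clec4a2, Clec4n, Clec4d and Clec4e in RefSeq, with 3 other protein-coding genes, Clec4a4, Clec4b1 and Clec4b2, between them. All 9 genes of the cluster were tested. Their log2 differences ranged from -0.59 for Clec4b2 to -0.01 for Clec4d, and none was called by limma. Clec4b1 read 3.79 ± 0.26 in wild type and 3.54 ± 0.17 in knockout, and Clec4a4 read 3.08 ± 0.92 and 2.69 ± 0.69 (SD, n = 3 each). The genes are relatives in sequence, and whether a probe also reads a neighbour was not tested, since probe letters were not used here.

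**Figure D4:**
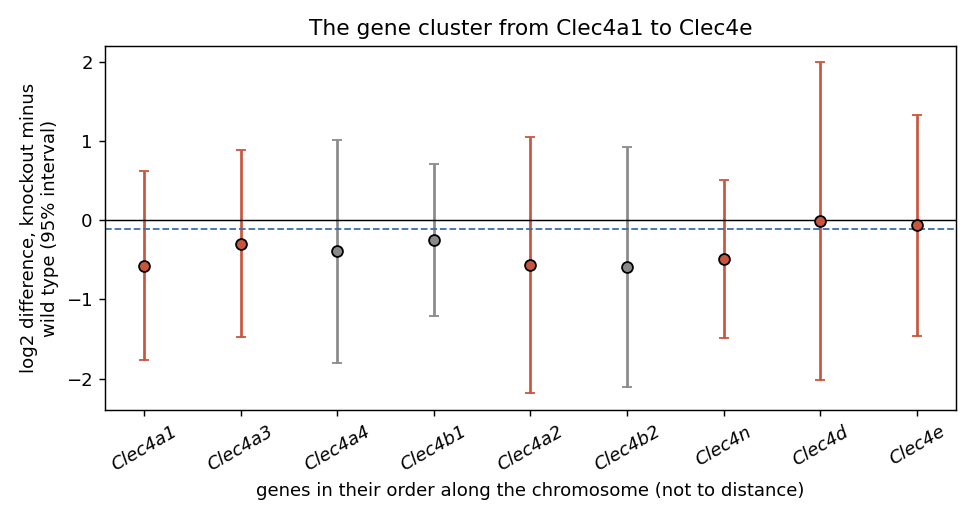
Log2 difference between Bach2 knockout and wild type with its 95% interval (y axis) for the 9 genes from Clec4a1 to Clec4e in chromosomal order (x axis, not to distance). Red points are members, grey points are neighbours, and the dashed line is the median of all tested probes at -0.12. All 9 intervals span 0.

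Clec1b and Clec12a lie in a second stretch together with Clec12b, Clec9a, Clec1a and Clec7a. Clec9a, a receptor of cross-presenting dendritic cells, was well above background on all arrays and gave 0.33 ± 0.73 (SE). Clec12b and Clec1a were not well above background on any array. Clec10a lies on another chromosome.

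Most signalling partners of these receptors were detected well enough to be tested. Of 24 genes for Syk, its adaptors and the Card9 branch, 19 were tested and 0 called, with 14 below 0 and a median of -0.10, close to the -0.12 of all probes. Under median centring 7 of 19 lay below 0. Fcer1g, the adaptor of Dectin-2, Mincle and MCL, read 7.24, 8.04 and 8.43 in wild type and 7.23, 7.82 and 6.79 in knockout, a log2 difference of -0.62 ± 0.51 (SE). Tyrobp, the adaptor DAP12, gave -0.40 ± 0.48 (SE). For Fcer1g and Tyrobp, as for Clec4n, knockout mouse 3 was the lowest. Before scaling, these 2 signals varied 1.91-fold and 1.55-fold over the arrays. The 75th percentile varied 3.67-fold and was highest on knockout mouse 3, and the part of the scaling in this likeness was not tested. Syk itself read 4.19, 5.28 and 5.55 in wild type and 4.13, 4.68 and 5.10 in knockout. Card9 passed background in 1 wild-type mouse and 0 knockout mice and was not tested, while its partners Bcl10 and Malt1 gave 0.09 ± 0.53 and 0.20 ± 0.64 (SE).

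The phosphatases that the inhibitory motif recruits were tested in full. Ptpn6 gave -0.18 ± 0.55, Ptpn11 0.15 ± 0.43 and Inpp5d, a lipid phosphatase, -0.05 ± 0.51 (SE), and none was called. Of 12 cytokine and mediator genes downstream of Card9, 4 were tested and 0 called. Ccl3, a chemokine for monocytes and lymphocytes, gave 1.98 ± 1.19 (SE) and passed background in 2 wild-type mice and all knockout mice. Its values were -4.79, -0.94 and -0.20 in wild type and -1.43, 0.38 and 1.06 in knockout. Tnf gave -1.11 ± 1.005 (SE) and passed background in 2 wild-type mice and 1 knockout mouse.

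Other C-type lectins of myeloid cells were tested as well. Of 28 genes in that list 15 were tested, 7 below and 8 above 0, with 0 called and a median log2 difference of 0.0034. Cd93, a receptor of the C-type lectin fold on myeloid and endothelial cells, gave 0.87 ± 0.53 and Cd207, langerin, -0.78 ± 0.77 (SE), the smallest p values of the list. The 2 lectin lists had medians of -0.19 and 0.0034, and their difference was not tested.

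Several members are also made by monocytes and dendritic cells, and the arrays carried those cells' markers. All 14 matched monocyte genes of 15 and all 13 dendritic cell genes were tested, with 7 of 14 and 7 of 13 below 0 and none called. The summed level of the monocyte list ran from 8.29 to 9.22 in wild type and from 8.51 to 9.19 in knockout. That of the dendritic cell list ran from 7.48 to 8.10 and from 7.32 to 7.71. The centred mean of the monocyte list was -0.55, 0.62 and 0.0038 in wild type and -0.77, 0.38 and 0.30 in knockout. That of the dendritic cell list was -0.34, 0.57 and -0.25 in wild type and -0.18, 0.02 and 0.17 in knockout. In both lists wild-type mouse 2 was the highest and mouse 1 the lowest in each genotype, as for the lectin genes. Mouse 1 was also the lowest of each genotype for the Syk signalling, other C-type lectin and red pulp macrophage lists. F13a1, a coagulation factor chain of monocytes, read 0.20, 2.49 and 0.18 in wild type and -2.42, -0.17 and 0.54 in knockout. In the dendritic cell list Ffar2, a receptor for short-chain fatty acids, gave -0.76 ± 0.62 and Siglech -0.48 ± 0.46 (SE). In a sorted bulk sample fewer cells of a type and less RNA per cell cannot be told apart, and the part of such cells in the lectin values was not tested.

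Neutrophil genes followed another order of mice. The neutrophil list had 11 of 12 matched genes tested, with Cxcr2 the exception, 9 above 0 and a median of 0.85. Its centred mean was -0.46, 0.38 and -1.20 in wild type and 0.18, 1.53 and -0.42 in knockout, and its summed level ran from 7.40 to 8.58 and from 7.47 to 9.01. Ltf, lactoferrin, gave 1.64 ± 0.69 and Ngp 1.35 ± 0.58 (SE, limma adjusted p = 0.9999 for each). Clec4d, which neutrophils also express, was high in mouse 2 of each genotype, where the neutrophil list was highest as well, but Clec4d was lowest in mouse 1 of each genotype and the neutrophil list in mouse 3. The part of neutrophil RNA in Clec4d was not tested. The red pulp macrophage list had all 14 tested genes below 0, beside 61.5% of all tested probes, and none called. With median centring 13 lay below 0, and with quantile normalization 12. The list's median was -0.40 against -0.12 for all tested probes. It was -0.26 against 0.02 with median centring and -0.04 against -0.03 with quantile normalization. The list's centred mean was -0.33, 0.28 and 0.78 in wild type and -0.45, -0.30 and 0.02 in knockout.

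**Figure D5:**
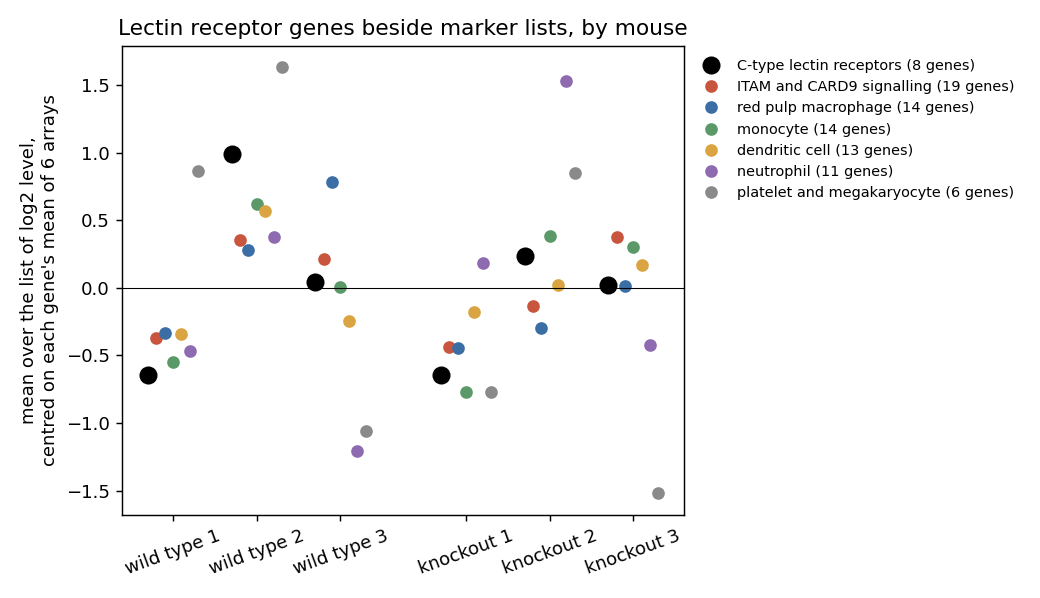
Mean over each gene list of the log2 level centred on the gene's mean over 6 arrays (y axis), for each mouse (x axis). The 8 lectin receptor genes (large black points) are highest in wild-type mouse 2 at 0.99 and lowest in mouse 1 of each genotype at -0.65, beside the lists for Syk signalling, red pulp macrophages, monocytes, dendritic cells, neutrophils and platelets.

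The genes whose levels ran most like each member were taken over the 6 arrays among 11160 other named genes. With so few arrays many genes follow any pattern, and between 123 and 528 genes had r above 0.9 to a member. Gnai2, a G protein subunit, ran closest to Clec4n (r = 0.993). Pitpna and Arrdc1 ran closest to Clec4a1 (r = 0.996 each), Rnf215 and Tesk1 to Clec4a3 (0.997 and 0.994), and Znrd1as and Casp1, the inflammatory caspase, to Clec4a2 (0.998 and 0.996). Yipf1 and Isoc2b ran closest to Clec4d, Akap17b and Hspa4 to Clec4e, Poglut2 and Fam207a to Clec10a, and Cebpzos and Ddx19a to Clec1b, with r between 0.991 and 0.997. These are descriptions over 6 arrays that share 1 scaling, with genotype and mouse both in the pattern.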

How the data were processed

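Spot intensity stands in the deposited scanner files. Agilent Feature Extraction made them, in version 10.7.3.1 per the file headers, whereas the submitters' processing notes name version 9.1. The intensity used is corrected for background within an array, per the file headers, with no normalization across arrays. Of the 279 probes with log2 values in the authors' deposited table, 0 are member probes. Those values equal the scaled scanner values after centring each probe on its median, to within 0.133. The column medians are 0.32, 0.34 and 0.28 in the wild-type mice and -0.29, -0.23 and -0.26 in the knockouts. The name of that table refers to filters on expression, flags and error. Beyond this, how those probes were picked is not given in the sources used here.

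Each array had 59305 spots that were not controls, for 55681 probes, of which 26413 were named through RefSeq accessions of GRCm38 and 29268 stayed unnamed. The array design is of an older build, so the table gave names and gene order only. Spots marked as outliers (141 to 283 per array) were left out, spots of a probe were averaged on the log2 scale, and different probes of a gene were kept apart, with the brightest standing for the gene. Probes well above background on at least 3 of 6 arrays were tested, 23032 after 31 with a missing value were left out. The test was limma's moderated fit (lmFit, then eBayes, limma 3.58.1, R 4.3.3), with Benjamini-Hochberg adjustment over all tested probes, and every printed p is two-sided. The fit was tested on simulated data. All arrays shared 1 slide and 1 scan time. Deviations of the arrays in 1 slide column correlated at 0.636, 0.145 and 0.274 in columns 1, 2 and 3, and those of wild-type mouse 2 and knockout mouse 3, from different columns, at 0.292. The column was also fitted as a block. The named genes were all members, Bach2, 2 genes of each list with the smallest p, markers read beside a member, and the 2 genes most like each member, of which a few are not reported here; genes of the cluster and of the signalling pathway were added for their place or role. The members and the lists were chosen with earlier results of these data known. Alternatives changed the background correction (normexp with an offset of 50, on the median signal, as no mean signal is in the files used), the scaling, the filter, outlier spots, the variance prior, the block and the mice included.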

Additional observations from a re-analysis of the deposited data

How the results depend on the processing

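In all 16 alternatives limma called 0 probes of the array and 0 member probes, with 129 to 937 probes at an unadjusted p under 0.05, the highest number without wild-type mouse 1. Leaving out each mouse moved the median over the members from -0.66 to 0.21, and the other alternatives moved it from -0.34 to -0.03. Clec4n and Clec4a1 kept their direction in 16 of 16 alternatives, though a changed filter, variance prior or block could not turn a sign. The other tested genes changed sign in some, with a limma adjusted p of at least 0.998 in every alternative. Clec4d gave 0.13 with median centring, 0.0591 with quantile normalization, 0.16 without both mice tagged P6, 0.73 without wild-type mouse 2, and 0.49 and 0.22 without knockout mice 1 and 3. Clec1b gave -0.0115 with normexp, -0.0311 without both P6 mice, -0.19 and -0.10 without wild-type mice 1 and 3, -0.12 without knockout mouse 2, and -0.12 for another probe. Clec4e gave 0.0744 with median centring, 0.50 without wild-type mouse 2, and 0.08 and 0.13 without knockout mice 1 and 2. Clec10a gave 0.0662 with median centring, 0.56 without wild-type mouse 2 and 0.66 without knockout mouse 1. Clec4a2 gave 0.11 without wild-type mouse 2 and Clec4a3 0.0121 with quantile normalization. At the other end, leaving out 1 mouse gave -0.7495 for Clec4d, -0.4036 for Clec4e and -0.5093 for Clec10a, 0.3059 for Clec1b and -1.21 for Clec4a2, and leaving out both P6 mice gave -0.70 for Clec4e and -0.82 for Clec10a. The cause of these changes was not tested. Pairing the arrays by slide column, as a block, called 0 probes too, with 723 at an unadjusted p under 0.05. The labels themselves share only 1 animal tag between the genotypes, P6, on mouse 3 of each. Dim signal limits Clec4e, Clec4a2 and Clec12a, and the number of arrays limits every value.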

Other observations

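Lymphocyte genes ran in another order over the mice than the lectin receptor genes. The centred mean of 10 tested T cell genes ran from -0.57 to -0.33 in wild type and from -0.03 to 0.89 in knockout, and that of 9 NK cell genes from -0.96 to -0.39 and from 0.20 to 1.13. Genotypes did not overlap in either list mean, whereas those of the 8 tested lectin receptor genes overlapped. By limma 0 genes of either list were called after adjustment. An unadjusted p under 0.05 was found for 3 of 10 T cell and 5 of 9 NK cell genes, beside 1.34% of all tested probes. The lists were chosen with earlier results of these data known, so these counts are a description only. Gzmb, which encodes granzyme B, gave a log2 difference of 3.19 ± 0.757 (SE), the largest of the NK cell list. Klrk1 and Prf1 of the same list gave 0.02 and 0.27. The part of such cells in the lectin values was not tested.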
